A study of Mus musculus with 7 samples.

Results

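The 10 genes described here form the core of the TREM2 and APOE programme of disease-associated microglia: Apoe, Trem2, Tyrobp, Lpl, Spp1, Gpnmb, Cst7, Clec7a, Itgax and Cd9. They were chosen by name, and all 10 were found among the 55491 gene rows of the single-cell matrix. Their levels were compared between cell names and between genotypes in immune cells from mouse brains carrying CT-2A, a mouse glioma line grown intracranially. The KO group was 4 Sall1CreERT2 x Siglece fl/fl mice (B6;129-Sall1 tm5(cre/ERT2)Ryn crossed with B6.129P2-Siglece tm1Bcgen), and the WT group was 3 mice with the floxed alleles but no Cre. All 7 mice were 8 to 12 weeks old at engraftment and received 2.5 mg of tamoxifen per injection, daily from day 7 to day 21 after engraftment and every other day later. Tamoxifen and the floxed alleles were therefore common to both groups, while the Cre insertion at Sall1, a transcription factor gene used to target microglia, was present in the KO mice only. The tumour-bearing hemisphere was dissociated and cryopreserved. After thawing, viable cells bearing CD45, CD11b or both were sorted for droplet 5′ RNA sequencing, with 1 library per mouse.

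In the known biology of the programme, TREM2 is a microglial surface receptor for lipids and lipoproteins, and TYROBP (DAP12) is the adaptor through which it activates the kinase SYK. APOE, a secreted carrier of lipids and cholesterol, is among the ligands of TREM2. Microglia near amyloid, myelin debris or dying cells lower their homeostatic genes and raise Apoe, Lpl, Spp1, Gpnmb, Cst7, Clec7a, Itgax and Cd9, and part of that switch needs TREM2. Macrophages that enter tumours from the blood can express many of the same genes.

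The matrix held 28644 cells under 23 cell names given by the authors, and 460 barcodes occurred in more than 1 library. Libraries held 1410 to 5856 cells with a median of 4479 to 9554 UMIs (unique molecule counts) per cell. Microglia were few: the name Microglia held 10, 7, 0 and 15 cells in KO mice 1 to 4 and 44, 48 and 39 in WT mice 1 to 3. The name Microglia (Low-quality/activated) held 20, 14, 13 and 34 cells in KO mice and 69, 44 and 57 in WT mice. A mouse entered a comparison only with at least 10 cells of the name, so Microglia was compared between KO mice 1 and 4 and the 3 WT mice. The deleted gene, Siglece, had 12.5 UMIs per 1000000 UMIs in the pooled Microglia of KO mice (3 UMIs) against 39.8 in WT mice (38 UMIs), and 0 against 20.5 in the low-quality cells (0 and 8 UMIs). Of 8 microglia markers, 6 had their highest level of all names in Microglia and 1 in the low-quality cells. All 5 migratory dendritic cell markers (summed level 9823 to 13337 UMIs per 1000000 UMIs) had their highest level of all names in the cells named cDC2. The names came from the same expression values, so differences between names are given as descriptions. Differences between genotypes were tested with edgeR's quasi-likelihood test on UMIs summed per mouse and name, with adjustment over all genes tested in that name.

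Levels are UMIs of a gene per 1000000 UMIs of the cells of a name (CPM), given per mouse or averaged over mice. Among the 8 microglia, macrophage and dendritic cell names, Microglia held the highest mean of 6 genes (Trem2, Tyrobp, Lpl, Gpnmb, Cst7 and Cd9), over 5 mice against 7 in the other names. For Tyrobp, Microglia was above plasmacytoid dendritic cells in 2 of 5 mice, and for Gpnmb above Macrophages (P3) in 3 of 5, so these pairs did not differ beyond their spread. Apoe was highest in Macrophages (P5), Spp1 and Clec7a in Macrophages (P3), and Itgax in the monocyte-derived dendritic cells (mo-DCs). The low-quality cells were below Microglia in every one of the 10 means. They also had median depths of 1612 to 3601 UMIs and 3.74% to 5.62% mitochondrial UMIs, against 3389 to 10554 UMIs and 1.78% to 2.61% in Microglia, and the part of depth and RNA quality in their low values was not tested.

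**Figure D1:**
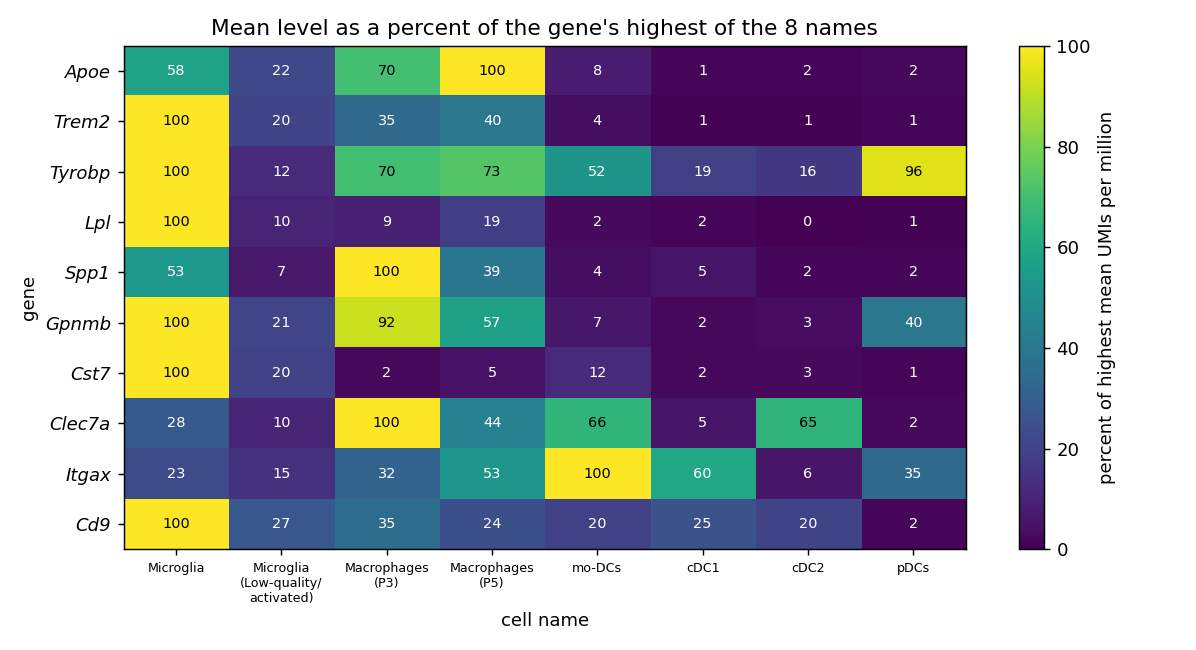
Mean level of each gene (rows) in 8 cell names (columns), as a percent of that gene's own highest mean among the 8. Microglia holds the highest mean of 6 genes, and Apoe, Spp1, Clec7a and Itgax peak in macrophages or mo-DCs.

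Apoe, the lipid carrier, was the 1 gene of the 10 that passed the test between genotypes within Microglia. Its level there was 16056.5 CPM in KO mouse 1 and 18502 in KO mouse 4, against 7964, 7393 and 6857 in WT mice 1 to 3. Every KO value lay above every WT value, and KO mouse 2, whose 7 cells kept it out of the fit, had 9776. The log2 fold change of KO over WT was 1.31 (SE 0.18, edgeR adjusted p = 0.00338, 2 KO and 3 WT mice). Of the 4648 genes tested in Microglia, 2 passed the adjusted threshold of 0.05, which is 0.043%, and the other was Nlrp3, the inflammasome sensor. Of 9 alternative fits that kept both KO mice, Apoe passed in 5, each on the same mice as the reported fit. Another 2 fits left 1 KO mouse, whose spread is then assumed to be that of the WT mice, and are not counted; over all 11 the log2 fold change was 1.06 to 1.41. Apoe did not pass in any fit that kept both KO mice and changed the other mice. These fits left out WT mouse 1, 2 or 3 (edgeR adjusted p = 0.0522, 0.154 and 0.0504) or added KO mouse 2 (1.06, adjusted p = 0.159).

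In the low-quality cells Apoe was 4985, 5169, 6530 and 4812 CPM in KO mice 1 to 4 and 2337, 2520 and 3839 in WT mice. All 4 KO values were above all 3 WT values. The log2 fold change was 0.83 (SE 0.24), which did not pass (edgeR adjusted p = 0.149). With both microglia names joined, Apoe was 11784, 7595, 6530 and 12307 in KO mice and 6078, 6183 and 6036 in WT mice, again without overlap, at a log2 fold change of 0.58 (SE 0.37, adjusted p = 0.478). The low-quality name made up 66.7%, 66.7%, 100% and 69.4% of the joined cells in KO mice and 61.1%, 47.8% and 59.4% in WT mice. The joined values of Apoe and of every other gene given for joined microglia also carry that difference in makeup, whose part was not tested.

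In macrophages of the same mice the KO and WT values of Apoe overlapped. In Macrophages (P5), where Apoe was highest, it was 9620.5, 21975, 19523 and 23035 CPM in KO mice and 18539, 26182 and 18954 in WT mice, with a log2 fold change of -0.18 (SE 0.28, edgeR adjusted p = 0.934). In Macrophages (P3) it was 4318, 16131, 14856 and 14367 against 14967, 19620 and 12415 (-0.34, SE 0.39, adjusted p = 0.955). KO mouse 1 was the lowest of the 7 mice in each. The difference between Microglia and macrophages was itself tested within mice, a test added after the values of Microglia had been seen. The genotype difference of Apoe was larger in Microglia than in Macrophages (P3) by 2.16 on the log2 scale (SE 0.37, adjusted p = 0.0052) and than in Macrophages (P5) by 1.61 (SE 0.28, adjusted p = 1.61e-05). These tests called 0.189% of 8480 genes and 0.39% of 10770 genes. Without KO mouse 1 the values for Apoe were 1.38 and 1.05, given without a test because 1 KO mouse then remains in Microglia. The test against Macrophages (P5) did not pass without WT mouse 2 (1.45, adjusted p = 0.0615). With both microglia names joined, the same differences were 0.80 (SE 0.72, adjusted p = 0.743) and 0.54 (SE 0.76, adjusted p = 0.878). The low-quality cells alone gave 1.21 against Macrophages (P3) (SE 0.33, adjusted p = 0.271, 0.0307% of 9772 genes called) and 0.95 against Macrophages (P5) (SE 0.31, adjusted p = 0.519).

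**Figure D2:**
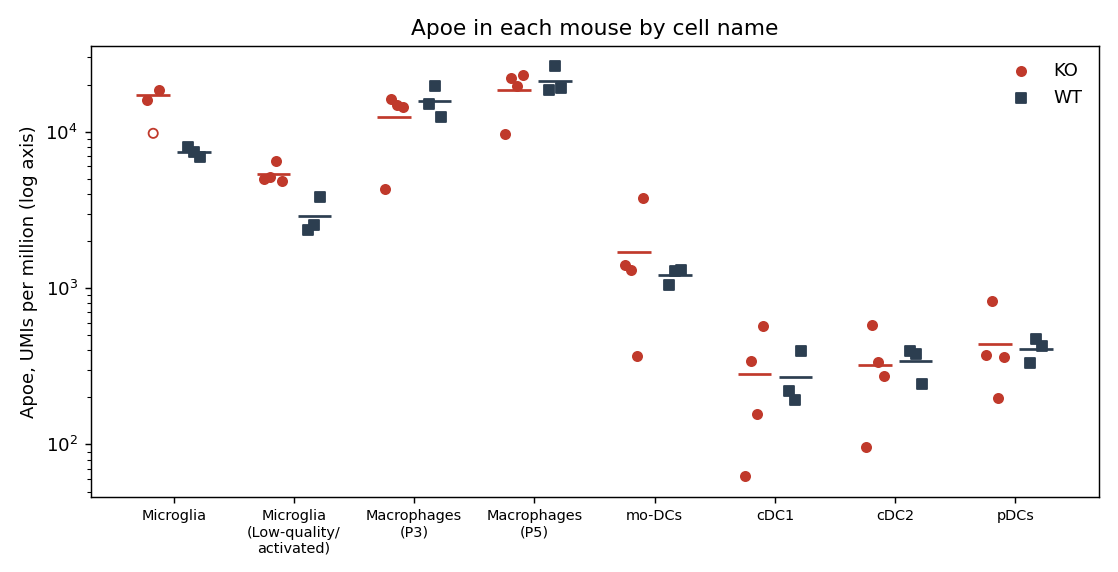
Apoe in CPM (log axis) for each mouse (points) in 8 cell names, with the mean of mice holding at least 10 cells (lines); the open circle is KO mouse 2, with 7 cells. KO mice lie above WT mice in both microglia names, and the groups overlap in the other 6.

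Single Microglia cells varied widely in Apoe. The median cell held 7210, 2951 and 18315 CPM in KO mice 1, 2 and 4 and 2758, 2905 and 3019 in WT mice 1 to 3, so the median of KO mouse 2 lay among the WT medians. Cells above 10000, a limit set after the values were seen, were 3 of 10, 2 of 7 and 10 of 15 in KO mice and 10 of 44, 12 of 48 and 11 of 39 in WT mice. All 48 cells above the limit had a UMI of a microglia marker, but so had 3279 of 3459 Macrophages (P5) cells and 1802 of 2095 Macrophages (P3) cells. In all, 17 Microglia cells lay between 8000 and 12500. The cells above the limit had a median of 5239 CPM of microglia markers and 377 of monocyte and macrophage markers, against 11208 and 223 in the cells below it, 862 and 2499 in Macrophages (P5) and 466 and 6372 in Macrophages (P3).

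Some markers of other cells were also higher in the KO Microglia. The 10 monocyte and macrophage markers summed to 1143 and 786 CPM in KO mice 1 and 4 (966 in KO mouse 2) and to 716, 458 and 495 in WT mice. In Macrophages (P3) the sum was 6763 to 9285 and in Macrophages (P5) 2718 to 3160. The monocyte marker Vcan was at 0 in the KO Microglia, whereas Fn1 was at 223 to 375 in KO and 86.8 to 175 in WT. A fit of only the cells with more microglia than macrophage marker UMIs was added after seeing the data. It gave a log2 fold change of 1.36 for Apoe (SE 0.18, edgeR adjusted p = 0.00103). It kept 8 of 10 and 15 of 15 cells in KO mice 1 and 4, and 43 of 44, 47 of 48 and 38 of 39 in WT mice. So few cells were removed that this fit could change little and cannot tell the part of macrophage markers. In the low-quality cells the sum of the monocyte and macrophage markers overlapped, at 271 to 703 in KO and 514 to 671 in WT. The 7 T cell markers summed to 52.4 and 81.1 in Microglia of KO mice 1 and 4 (37.2 in KO mouse 2) and 5.43 to 25.7 in WT. In joined microglia the T cell markers were separate, at 48.2, 137, 81.3 and 128 in KO and 10.8, 41.1 and 29.2 in WT. They were separate in Macrophages (P3) too, at 35.9 to 83.0 in KO and 22.5 to 30.9 in WT, although Apoe overlapped there. The KO libraries held 10617 T cells and the WT libraries 3075. The 8 border-associated macrophage markers summed to 419 and 213 in Microglia of KO mice 1 and 4 and 241 to 273 in WT, and in joined microglia to 498, 411, 705 and 244 in KO and 256 to 297 in WT, with overlap in both. The 8 microglia markers were 5227 and 8784 in Microglia of KO mice 1 and 4 (13269 in KO mouse 2) and 8434 to 11879 in WT. The part of these markers in the difference of Apoe was not tested further.

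Free RNA sets the level below which Apoe cannot be read. T cells, which should lack it, held 196 to 723 CPM, and after each cell was thinned to 1500 UMIs 40.4% of T cells in KO mice and 52.8% in WT mice had an Apoe UMI. B cells held 283 to 1792. Apoe in cDC1 (62.6 to 573), cDC2 (96.3 to 581) and plasmacytoid dendritic cells (197 to 823) overlapped that range and was not read as expression. The mo-DCs had 1413, 1298, 370 and 3744 in KO mice and 1048, 1289 and 1314 in WT mice, with a log2 fold change of 0.46 (SE 0.75, adjusted p = 0.916). In every mouse they were above its T cells, which held 196, 723, 207 and 379 in KO and 544, 508 and 367 in WT. They were above B cells in 4 of 6 mice, so their Apoe was not clearly above the level of free RNA seen in B cells. Per cell, T cells held 1.19 to 3.02 Apoe UMIs and B cells 3.37 to 9.75. The same number of UMIs gives a higher CPM in cells of low depth, and the low-quality microglia had median depths of 1612 to 3601 UMIs. The CPM ranges of T and B cells therefore do not set a limit for them, and the part of free RNA in their Apoe was not tested.

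Across the 23 names the mean level of Apoe followed that of Trem2 most closely among the 10 genes (Pearson r = 0.977 on log2 means, a description over names that share libraries), and the genes closest to both included C1qb, a complement subunit (r = 0.983 for Apoe and 0.989 for Trem2). In most names mean Apoe lay within or below the range of T and B cells given above. The r of 0.977 therefore largely reflects the gap between microglia, macrophages and monocytes and the other names. Among the higher names the orders differed. Mean Apoe was 19690 CPM in Macrophages (P5) and 11355 in Microglia, whereas mean Trem2 was 404 and 1004. The start regions of Apoe and Trem2 are shown beside that of Clec7a, whose closest genes were different ones, Il1b, Il18bp and Il1rn (r = 0.963, 0.949 and 0.947). RefSeq's GRCm38.p6 table gave start windows for 8 of the 10 genes, without Lpl and Tyrobp. Each line gives the 250 bases before a start in the direction of transcription, with GAGGAA or its reverse complement TTCCTC, the core of sites for the myeloid factor PU.1, in capitals. Apoe has 3 windows listed and Clec7a has 2, of which 1 each is shown.
Apoe, chr7:19699189-19699438, minus strand: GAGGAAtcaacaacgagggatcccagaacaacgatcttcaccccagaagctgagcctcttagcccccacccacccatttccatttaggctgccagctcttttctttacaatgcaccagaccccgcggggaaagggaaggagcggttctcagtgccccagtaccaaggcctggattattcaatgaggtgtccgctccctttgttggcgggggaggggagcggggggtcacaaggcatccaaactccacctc
Trem2, chr17:48346151-48346400, plus strand: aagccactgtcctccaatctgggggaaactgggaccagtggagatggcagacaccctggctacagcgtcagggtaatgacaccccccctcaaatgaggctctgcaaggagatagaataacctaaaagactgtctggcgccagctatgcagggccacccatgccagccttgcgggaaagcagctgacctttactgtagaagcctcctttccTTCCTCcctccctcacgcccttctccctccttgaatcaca
Clec7a, chr6:129472780-129473029, minus strand: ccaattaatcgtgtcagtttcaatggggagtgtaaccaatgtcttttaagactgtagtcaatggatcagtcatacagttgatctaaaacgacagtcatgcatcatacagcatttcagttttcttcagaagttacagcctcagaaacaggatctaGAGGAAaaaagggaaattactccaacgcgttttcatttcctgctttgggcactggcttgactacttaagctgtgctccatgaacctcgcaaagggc
Both strands of each whole window were searched for 3 words. GAGGAA was found in 2 of 3 windows of Apoe, 1 of 1 of Trem2, 2 of 2 of Clec7a and 1 of 2 of Spp1, which makes 6 of the 12 windows of the 8 genes, and 28.3% of all 32851 windows in the table hold it. The 2 windows of Clec7a overlap and hold the same site, which is therefore counted in both. TGACTCA, the AP-1 site, was found for Gpnmb and Itgax, and 5.20% of windows hold it. CACGTG, the E-box read by MITF and TFEB, was found in no window of the 8 genes, and 7.15% of windows hold it. Such a match describes the letters of the window and is not evidence of a bound site.

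Trem2 and Tyrobp, the receptor and its adaptor, were not called in any of the 9 genotype comparisons. Trem2 in Microglia was 742 and 832 CPM in KO mice 1 and 4 and 1132, 1337 and 980 in WT mice, with a log2 fold change of -0.47 (SE 0.24, edgeR adjusted p = 0.605). These fitted groups did not overlap, but KO mouse 2 had 1450 in its 7 cells. In the low-quality cells Trem2 was 208, 82.7, 190 and 196 against 221, 292 and 234 (-0.46, SE 0.33, adjusted p = 0.828), also without overlap. In Microglia KO and WT values were fully separate for Apoe, with KO higher, and for Trem2, Spp1 and Lpl, with KO lower, beside 10.5% and 18.4% of all genes tested. Trem2 in Macrophages (P3) and (P5) gave -0.21 and -0.15 with overlapping groups. Microglia was above both macrophage names in Trem2 in all 5 mice compared, by a median of 2.99 and 2.33 times.

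Tyrobp in Microglia was 2653 and 3388 CPM in KO mice and 3329, 3297 and 2950 in WT mice, a log2 fold change of 0.00 (SE 0.21, adjusted p = 0.998). In the low-quality cells it was 244 to 500 in KO and 292 to 429 in WT, with a median ratio of Microglia to low-quality cells of 10.1 within mice. Plasmacytoid dendritic cells, which also signal through DAP12, had 2379 to 3402. In cDC2 Tyrobp was 462, 438, 382 and 519 in KO and 664, 522 and 520 in WT, without overlap, at -0.43 (SE 0.17, adjusted p = 0.443).

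Lpl, the lipase that releases fatty acids from lipoprotein triglycerides, was a gene of few UMIs. In Microglia KO mice 1 and 4 had 34.9 and 50.7 CPM, from 4 and 5 UMIs, and WT mice had 103, 80.3 and 54.6. The groups did not overlap, and the log2 fold change was -0.84 (SE 0.49, adjusted p = 0.668). Among the other 7 names its highest mean was 12.1, in Macrophages (P5), and cDC2 held no UMI of it in any mouse.

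Spp1 encodes osteopontin, a secreted ligand of integrins and CD44. In Microglia it was 113 and 193 CPM in KO mice 1 and 4 and 1686, 206 and 983 in WT mice, a log2 fold change of -2.57 with an SE of 1.25 (adjusted p = 0.684). The fitted groups did not overlap, but WT mouse 2 lay near the KO level, and KO mouse 2 had 335. With both microglia names joined it was 139, 176, 108 and 156 against 1152, 159 and 737. The joined log2 fold change was -2.27 (SE 0.49), short of the threshold in edgeR (adjusted p = 0.109) and past it in DESeq2 (adjusted p = 0.0463). Without WT mouse 2 it was -2.75 (adjusted p = 0.00186), and over 15 alternative fits it passed in 3. Of the joined UMIs, 67 came from KO and 982 from WT mice.

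Spp1 in macrophages had the same order of means and overlapping groups. In Macrophages (P3) it was 1583, 342, 148 and 894 CPM in KO and 2166, 992 and 2253 in WT (-1.25, SE 0.82, adjusted p = 0.913). In Macrophages (P5) it was 436, 201, 68.3 and 237 against 1001, 288 and 1062 (-1.69, SE 0.68, adjusted p = 0.73). Within the low-quality cells the order of the means was the other way, at 180.5, 0, 108 and 110 in KO and 91.6, 19.5 and 77.9 in WT, from 26 and 27 UMIs, and T cells held 34.9 to 231. The single microglia names, compared with macrophages after the values had been seen, gave differences of opposite sign for Spp1. Against Macrophages (P5) the genotype difference was -1.32 in Microglia (SE 0.35, edgeR adjusted p = 0.04) and 2.31 in the low-quality cells (SE 0.54, adjusted p = 0.0469, 0.045% of 11101 genes called). Spp1 did not pass the filter on low counts in the low-quality cells and entered the second test through the macrophages, so that value is given as a description and supports no difference. The first passed in 1 of 7 alternative fits, with a single KO mouse left in Microglia, and the second in 2 of 10. Of all Spp1 UMIs, 2.81% lay in values that were not whole numbers.

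Gpnmb, a lysosomal and cell surface glycoprotein of lipid-loaded phagocytes, had few UMIs in KO microglia. With both microglia names joined it was 5.36, 0, 0 and 27.8 CPM in KO mice and 66.8, 31.4 and 82.2 in WT mice. In Microglia alone it was 8.73 and 40.6 in KO mice 1 and 4 against 95.04, 38.6 and 94.7, with overlap (-1.59, SE 0.67, adjusted p = 0.476). In the joined cells every KO value was below every WT value, and they rest on 6 UMIs in KO and 81 in WT, too few for the filter of the joined genotype test. In Macrophages (P3) it was 42.3, 32.6, 34.5 and 83.8 against 93.2, 27.3 and 43.5, and in Macrophages (P5) 15.4, 19.2, 27.3 and 53.7 against 43.7, 23.2 and 38.5, both with overlap. The genotype difference of Gpnmb was lower in joined microglia than in Macrophages (P3) by a log2 value of -2.40 (SE 0.60, edgeR adjusted p = 0.0271), in a test that called 0.264% of 9832 genes. Gpnmb entered this test through its counts in macrophages, and the microglia side rests on the few UMIs given above, so it is not evidence of a difference particular to microglia. Against Macrophages (P5) it was -2.20 (SE 0.61, adjusted p = 0.0781). The first value passed in 4 of 10 alternative fits, of which a minimum of 20 cells and leaving out KO mouse 3 are the same fit, and did not pass without KO mouse 1, 2 or 4 (adjusted p = 0.223, 0.122 and 0.0576) or without WT mouse 2 or 3 (adjusted p = 0.0992 and 0.269). Microglia alone gave -1.92 (SE 0.63, adjusted p = 0.359) against Macrophages (P3). The median over all genes in these tests was -0.10 and -0.11, so most genes lay slightly below 0 too.

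Cst7, cystatin F, an inhibitor of lysosomal cysteine proteases, was present in Microglia and nearly absent from macrophages. Its level in Microglia was 131 and 325 CPM in KO mice and 168, 80.3 and 226 in WT mice, against 2.11 to 5.00 in Macrophages (P3) and 2.56 to 15.9 in Macrophages (P5). The log2 fold change in Microglia was 0.59 (SE 0.50, adjusted p = 0.815). T cells and NK cells also express Cst7, and T cells held 128 to 325. The T cell markers in Microglia were summed at 52.4 and 81.1 in KO and 5.43 to 25.7 in WT, and their part in Cst7 was not tested. In cDC1 Cst7 was 3.34, 6.23, 7.18 and 4.82 in KO and 2.579, 2.239 and 2.705 in WT, without overlap, at 1.13 (SE 0.31, edgeR adjusted p = 0.684), and all these values lie far below the T cell level. The T cell markers in cDC1 separated the same way, with sums of 50.1, 76.2, 66.9 and 73.3 CPM in KO and 7.22, 16.7 and 24.3 in WT, and their part in Cst7 there was not tested.

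Clec7a, the receptor dectin-1 for fungal glucans, had opposite signs in macrophages and microglia. In Macrophages (P5) it was 226, 196, 252 and 196 CPM in KO mice and 74.4, 138 and 186 in WT mice. All 4 KO values were above the WT values, and the log2 fold change of 0.72 (SE 0.28) did not pass (edgeR adjusted p = 0.705). Markers of other cells also separated there: the border-associated macrophage markers summed to 478 to 775 CPM in KO and 809.9 to 1177 in WT, and the T cell markers at 55.6 to 65.5 and 12.8 to 40.2, and their part in Clec7a was not tested. In Macrophages (P3) it was 544, 473, 473 and 343 against 264, 342 and 418 (0.42, SE 0.22, adjusted p = 0.89). Joined microglia had 58.9, 39.1, 27.1 and 88.9 in KO and 170, 65.2 and 74.2 in WT, with 1 KO value above 2 WT values (-0.75, SE 0.42, adjusted p = 0.43).

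The genotype difference of Clec7a was lower in joined microglia than in Macrophages (P5) by -1.67 on the log2 scale (SE 0.41, edgeR adjusted p = 0.0335), among 0.174% of 10893 genes called. It passed in 5 of 10 alternative fits. Without WT mouse 1, which had the lowest Clec7a in Macrophages (P5) and the highest in microglia, it was -0.72 (adjusted p = 0.774), and it did not pass without KO mouse 1, 2 or 3 (adjusted p = 0.242, 0.0943 and 0.74). Against Macrophages (P3) it was -1.22 (SE 0.47, adjusted p = 0.273). Microglia alone gave -1.53 against Macrophages (P5) with an SE of 1.62 (adjusted p = 0.908), and the low-quality cells -0.52 (adjusted p = 0.993).

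**Figure D3:**
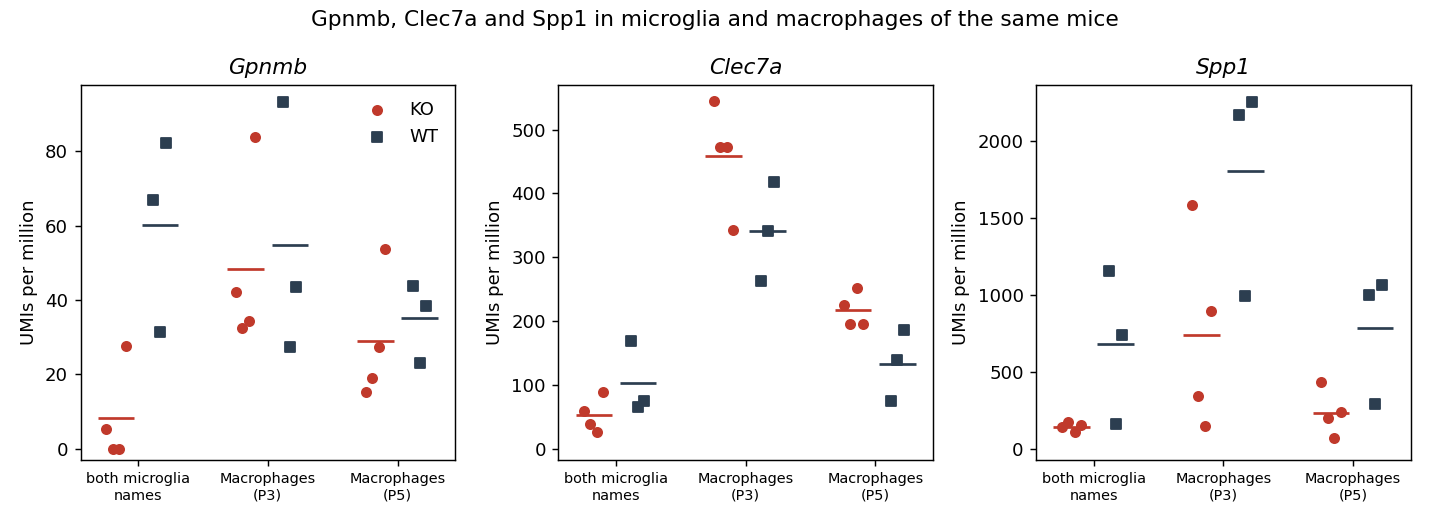
Gpnmb, Clec7a and Spp1 in CPM for each mouse (points) and the group mean (lines), in both microglia names joined and in Macrophages (P3) and (P5). The 4 KO mice are below the 3 WT mice for Gpnmb in joined microglia, on few UMIs in KO, and above them for Clec7a in Macrophages (P5). The groups overlap elsewhere. For Gpnmb they also overlap in Microglia alone, and the joined cells differ in makeup between the genotypes.

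Itgax (CD11c) pairs with CD18 as complement receptor and is a marker of dendritic cells as well as of activated microglia. It was highest in mo-DCs, at 302, 258, 288 and 229 CPM in KO and 258, 226 and 235 in WT (0.13, SE 0.14, adjusted p = 0.865). In Microglia it was 87.3 and 20.3 in KO and 91.0, 64.3 and 36.4 in WT, with overlap (-0.15, SE 0.56, adjusted p = 0.987). Across names its mean followed that of Tyrobp (r = 0.914), which it resembled more than Trem2.

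Cd9 encodes a tetraspanin, a membrane organiser of integrins. In Microglia it was 471 and 771 CPM in KO mice and 1157, 1044 and 728 in WT mice (-0.57, SE 0.28, adjusted p = 0.553), and KO mouse 4 lay above WT mouse 3. Joined microglia had 375, 313, 190 and 505 against 868, 867 and 575, without overlap, at -1.14 (SE 0.37, edgeR adjusted p = 0.24). The joined values of Cd9 also carry the difference in makeup between the genotypes. In plasmacytoid dendritic cells it was 12.9, 11.5, 5.32 and 3.32 against 23.0, 19.7 and 31.5, also without overlap (-1.34, SE 0.48, adjusted p = 0.626), levels at or below the 13.5 to 70.9 of T cells.

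Counted by name, edgeR called 1 of the 10 genes in Microglia (0.043% of all genes) and 0 of 4 tested in the low-quality cells (0.112%), 0 of 8 in the joined microglia (0.0541%), 0 of 9 in Macrophages (P3) (0%) and 0 of 10 in Macrophages (P5) (0.0188%). It called 0 of 8 in mo-DCs (0%), 0 of 8 in cDC1 (0%), 0 of 7 in cDC2 (0%) and 0 of 6 in plasmacytoid dendritic cells (0.045%). An unadjusted p under 0.05 was reached by 2 genes in Microglia (9.14% of all genes), 1 in the low-quality cells (6.99%), 2 in joined microglia (13.3%), 0 in Macrophages (P3) (5.41%) and 2 in Macrophages (P5) (6.78%). The counts were 0 in mo-DCs (7.6%), 1 in cDC1 (5.83%), 2 in cDC2 (9.67%) and 1 in plasmacytoid dendritic cells (6.38%). In the names where edgeR called none of the 10, DESeq2 called Spp1 in the joined microglia and 0 elsewhere.

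Separation of the KO from the WT values was counted among the tested genes in the same way. In the low-quality cells Apoe was separate with KO higher (4.98% of all genes) and Trem2 with KO lower (2.68%). In joined microglia Apoe was separate with KO higher (8.14%) and Cd9 and Tyrobp with KO lower (7.74%). Neither Cd9 nor Tyrobp was separate in Microglia alone. Macrophages (P3) had none in either direction (3.08% and 3.35%), and Macrophages (P5) had Clec7a with KO higher (2.79%) and none lower (4.52%). Among dendritic cells, mo-DCs had none (5.31% and 2.81%), cDC1 had Cst7 higher (3.14%) and none lower (3.22%), cDC2 had none higher (7.45%) and Tyrobp and Trem2 lower (2.9%, with Trem2 at 2.14 to 12.5 CPM, within or below the 4.86 to 18.3 of T cells), and plasmacytoid dendritic cells had none higher (3.48%) and Cd9 lower (3.26%). The joined microglia had a median log2 fold change of -0.78 over the 8 tested genes and 0.00 over all genes. Microglia had -0.52 over the 10 genes and -0.01 over all genes. The low-quality name was below Microglia in every one of the 10 means. It made up 66.7% to 100% of the joined cells in KO mice and 47.8% to 61.1% in WT mice. The part of that makeup in the joined median and in the separation of Cd9 and Tyrobp was not tested. The difference of genotype effects between both macrophage names was called for 0 of 10 genes (0% of 11361) by edgeR, and that between mo-DCs and Macrophages (P5) for 0 of 10 (0.0257% of 11666), with 2 and 1 of the 10 at an unadjusted p under 0.05, beside 631 and 696 of all genes; DESeq2 was not run on these.

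**Figure D4:**
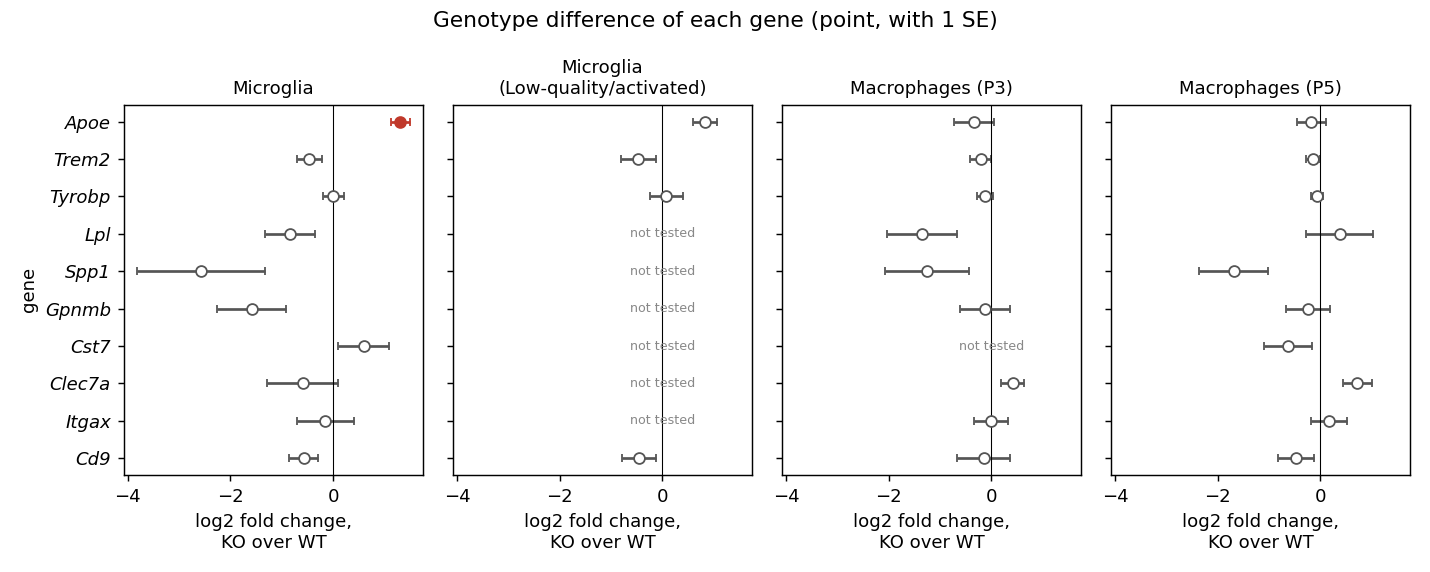
Log2 fold change of KO over WT (points, bars of 1 SE) for each gene in Microglia (2 KO and 3 WT mice), the low-quality cells, Macrophages (P3) and Macrophages (P5) (4 KO and 3 WT mice). The filled red point, Apoe in Microglia at 1.31, is the one that passed the adjusted threshold.

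The wider pathways were followed in 6 lists. Of 19 TREM2 signalling genes, 13 were tested in Microglia and 19 in Macrophages (P5), and edgeR and DESeq2 called none in either. In mo-DCs 4 of 18 had an unadjusted p under 0.05, beside 7.6% of all genes, and in cDC1 5 of 17, beside 5.83%. In cDC1 1 of them was higher and 4 were lower in KO. The T cell markers in cDC1 summed to 50.1 to 76.2 CPM in KO and 7.22 to 24.3 in WT, and their part was not tested. The 4 in mo-DCs all had lower values in KO, among them Syk, the kinase activated by DAP12, at 114 against 156 CPM (-0.48, SE 0.14, edgeR adjusted p = 0.542). In mo-DCs the monocyte and macrophage markers were also lower in KO without overlap, at 1399.7 to 1622.3 CPM summed over the list against 1623.5 to 3149.8, and the T cell markers higher, at 55.0 to 219 against 17.3 to 49.5, and their part was not tested. None of the 24 lipid and cholesterol genes passed in the tested names with edgeR or DESeq2. In Microglia 17 of them were tested with a median of -0.01, and Fabp5, a fatty acid carrier, had the largest difference of those without overlap, at 37.3 against 104 CPM (-1.39, SE 0.50, adjusted p = 0.399). Of 24 further disease-associated microglia genes, 22 were tested in Microglia with a median of -0.05, and edgeR called 0. In joined microglia 22 were tested with a median of -0.48 and 0 called. Of these, 8 had lower KO values without overlap, beside 7.74% of all genes. An unadjusted p under 0.05 was reached by 8, beside 13.3%, of which 6 were lower and 2 higher in KO. The joined values carry the difference in makeup, whose part was not tested. In Microglia 4 of 22 were lower and 3 higher without overlap, beside 18.4% and 10.5%. In the low-quality cells 1 of 18 was lower and 2 were higher, beside 2.68% and 4.98%. In Microglia the unadjusted p was under 0.05 for 6 of 22, beside 9.14%. DESeq2 called Ctsl, a cathepsin, in Microglia (-1.18, adjusted p = 0.0113) and in joined microglia (-1.27, adjusted p = 0.0271), and Igf1, a growth factor, in Macrophages (P5) (-2.30, adjusted p = 0.0317; edgeR adjusted p = 0.675).

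Within that list Lilrb4a, an inhibitory receptor, passed in the low-quality cells. Its levels were 1562, 489, 459 and 1023 CPM in KO mice and 310, 314 and 239 in WT mice, without overlap, a log2 fold change of 1.67 (SE 0.34, edgeR adjusted p = 0.0354), and reads of its close relative Lilr4b may be split between both genes. It passed in 7 of 15 alternative fits, and not without KO mouse 1 or 4 (adjusted p = 0.165 and 0.106), without WT mouse 1, 2 or 3 (0.27, 0.0858 and 0.153), with whole-number values (0.168) or, added after seeing the data, with sex as a term (0.101). Among the passing fits, the minimum of 1 cell kept the same mice and repeats the reported fit. A minimum of 20 cells left only KO mice 1 and 4 in the KO group, which had its highest levels. Axl, a receptor for apoptotic cells, was 253 and 446 in KO Microglia and 152, 157 and 91.0 in WT (1.45, SE 0.32, adjusted p = 0.127). Ctsl was 724 and 629 against 1776, 1722 and 1442 (-1.20, SE 0.24, adjusted p = 0.0721), and Lgals3, galectin-3, was 236 and 40.6 against 649, 312 and 492 (-1.68, SE 0.60, adjusted p = 0.468). In each of these 3 genes the fitted groups did not overlap, with the KO values higher for Axl and lower for Ctsl and Lgals3. KO mouse 2, not fitted, had 149 for Axl, 1450 for Ctsl and 37.2 for Lgals3.

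The 16 homeostatic genes were all tested in Microglia, with a median log2 fold change of -0.46 beside -0.01 over all genes, and 14 of them had values below 0. None passed in edgeR or DESeq2, 2 had an unadjusted p under 0.05, beside 9.14% of all genes, and 6 had lower KO values without overlap, beside 18.4%. An unadjusted p under 0.05 was reached by 4 of 16 in joined microglia, beside 13.3%, and 3 of 14 in the low-quality cells, beside 6.99%. Without overlap, 1 of 16 was lower and 1 higher in joined microglia, beside 7.74% and 8.14%. In the low-quality cells 3 of 14 were lower and 1 higher, beside 2.68% and 4.98%. Sall1, the gene that carries the Cre insertion, was 34.9 and 71.0 CPM in KO mice and 76.0, 154 and 98.3 in WT mice (-0.98, SE 0.49, adjusted p = 0.565), and KO mouse 2 had 74.3. The Cre insertion and the loss of Siglece cannot be told apart here. Of the 11 osteopontin and GPNMB partners and the 11 integrin and tetraspanin partners, edgeR and DESeq2 called 0 in the 9 comparisons, while in Microglia 1 of 9 and 3 of 9 tested had an unadjusted p under 0.05, beside 9.14% of all genes. Itgam (CD11b), one of the sort markers, was lower without overlap in the low-quality cells, at 448 against 884 (-1.01, SE 0.28, adjusted p = 0.149).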

How the data were processed

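The 10 genes, the pathway and marker lists and the tests were chosen with earlier results of these data known. The authors deposited expected counts, UMIs per gene and cell that were not scaled; 7.51% of non-zero values were not whole, and how these arose is not stated in the sources used here. The deposited cell table gave percent mitochondrial and ribosomal content and the cell names. The submitters' processing notes name FastQC 0.11.5, STARsolo, STAR 2.7.10a and the build mm10; how doublets were treated is not given in the sources used here. UMIs were summed per mouse and name, rounded, and fitted in edgeR 4.0.16 (R 4.3.3) with TMM, filterByExpr and robust quasi-likelihood dispersions; p-values were Benjamini-Hochberg adjusted over all genes of a comparison, at a threshold of 0.05 and a minimum of 10 cells. Differences between names used 1 term per mouse and a name-by-genotype term. Fold changes are log2, KO over WT. All 10 genes were named where tested; from each pathway list, genes past the threshold or up to 2 per direction without overlap. Genes were called alike by Pearson r of log2 means over 23 names among 7397 genes reaching 50 CPM. On simulated data the fits recovered 24% and 74% of genes changed by log2 values of 1 and 2 in the joined microglia (3871 genes) and 46% and 95% in Macrophages (P5) (10760 genes). The simulation gave every gene the same spread between mice (dispersion 0.05) and no difference in cell makeup. Only genes with at least 50 UMIs were changed in it. Microglia, with 2 KO mice, was not simulated, so these percents do not give the recovery there or in the real data. Alternatives were DESeq2 1.42.0, no filter, a replicate block, other cell minimums, whole-number values, each mouse left out and, added after seeing the data, sex as a term, only cells with more microglia than macrophage marker UMIs and the differences of each single microglia name from macrophages. The p-values measure the spread between the mice of a comparison, 1 library each. These were 7 mice at most, and 2 KO and 3 WT mice in Microglia. For differences between names they measure the spread of the difference within mice. Sex was read from Xist and Y-linked UMIs (KO mice 1 and 2 and WT mouse 3 female, the others male).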

Additional observations from a re-analysis of the deposited data

Results flagged for a closer look

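Among 80 groups of 4 KO mice, these values stood apart from the other 3 by more than Dixon's 95% limit. Chance alone puts about 1 of 20 groups past it. Apoe in Macrophages (P3) was lowest in KO mouse 1, at 4318 CPM. Trem2 was lowest in the low-quality microglia of KO mouse 2, at 82.7, and in plasmacytoid dendritic cells of KO mouse 3, at 5.32. Both values of Trem2 rest on few UMIs, since these cells held 24182 and 188037 UMIs of all genes. The second lies within the 4.86 to 18.3 of T cells. Lpl in mo-DCs was highest in KO mouse 1, at 3.52 (6 UMIs). In 3 groups the other KO mice were all at 0, so that any UMI stands apart and the limit says nothing: Lpl in KO mouse 1 in the low-quality microglia, at 41.7 (3 UMIs), and in plasmacytoid dendritic cells, at 3.23 (2 UMIs), and Gpnmb in the low-quality microglia of KO mouse 4, at 12.3 (1 UMI).

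For these genes edgeR's test of the difference between cell names passed the adjusted threshold, given as log2 values of the first name minus the second. The calls for Gpnmb, Clec7a, Spp1 and for Apoe against Macrophages (P5) were lost in some alternative fits, as given above. How stable the other calls are is not given here. Joined microglia against Macrophages (P3) gave -2.40 for Gpnmb and -2.66 for Lgals3, and against Macrophages (P5) -1.67 for Clec7a and -2.25 for Lgals3. Comparisons of the single names were added after seeing the data. Microglia against Macrophages (P3) gave 2.16 for Apoe, 1.82 for Axl and -2.67 for Lgals3. Microglia against Macrophages (P5) gave 1.61 for Apoe, 1.37 for Axl, -1.14 for Ctsl, -1.32 for Spp1 and -2.29 for Lgals3. The low-quality cells gave -1.82 for P2ry12 against Macrophages (P3) and 2.31 for Spp1 against Macrophages (P5). Gpnmb in joined microglia and Spp1 in the low-quality cells did not pass the filter on low counts there and entered these tests through the macrophages, so both are descriptions.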

How the results depend on the processing

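Of 1678 alternative values of 149 results for the 10 genes, 1527 kept their direction and side of the threshold, 104 changed sign with neither value past it, 30 lost it, 17 gained it and 0 reversed past it; 3 had no adjusted p from DESeq2. Of these values, 128 under another minimum of cells repeat the reported fit, since it kept the same mice, and say nothing about stability. Counts of genes called moved more. Without the filter on low counts they were 36 in Microglia, 10 in the low-quality cells, 37 in joined microglia, 33 in Macrophages (P3), 117 in Macrophages (P5), 182 in mo-DCs, 105 in cDC1, 113 in cDC2 and 38 in plasmacytoid dendritic cells, against 2, 2, 2, 0, 2, 0, 0, 0 and 3. DESeq2 gave 7 in joined microglia, 6 in Macrophages (P3), 20 in Macrophages (P5), 34 in mo-DCs, 15 in cDC1, 13 in cDC2 and 6 in plasmacytoid dendritic cells. Replicate numbers did not pair mice (same-number correlations -0.22 to 0.09); with a replicate block the counts were 3 in the low-quality cells, 3 in joined microglia, 4 in Macrophages (P3), 11 in Macrophages (P5), 19 in mo-DCs, 13 in cDC1, 64 in cDC2 and 49 in plasmacytoid dendritic cells, and Lilrb4a in the low-quality cells had an adjusted p of 0.176. In Microglia the block and a minimum of 20 cells could not be fitted, a minimum of 1 cell gave 1, and, added after seeing the data, sex as a term and keeping only cells with more microglia than macrophage markers gave 5 each. The low-quality cells gave 5 with a minimum of 20 cells, 1 with whole-number values and 1 with sex. Macrophages (P5) gave 1 with whole-number values and 0 with sex, and plasmacytoid dendritic cells 0 with sex.

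For differences between names, no filter gave 16 against 0 for both macrophage names, 131 against 3 for mo-DCs and Macrophages (P5), 25 against 16 for Microglia and Macrophages (P3), 25 against 42 for Microglia and Macrophages (P5), and 0 against 3 for the low-quality cells and Macrophages (P3). A minimum of 20 cells gave 58 against 26 and 50 against 19 for joined microglia and Macrophages (P3) and (P5), and 8 against 3 and 2 against 5 for the low-quality cells. Leaving out each mouse gave 0 to 62 in Microglia (0 to 6 with both KO mice kept; the higher counts compare 1 KO mouse), 0 to 3 in the low-quality cells, 2 to 4 in joined microglia, 0 to 2 in Macrophages (P3), 0 to 4 in Macrophages (P5), 0 to 2 in mo-DCs, 0 to 3 in cDC1, 0 to 4 in cDC2 and 0 to 12 in plasmacytoid dendritic cells. For the differences it gave 2 to 58, 4 to 50, 0 to 1 and 0 to 5 for the planned ones, 4 to 46 and 21 to 97 for Microglia, and 0 to 5 and 0 to 10 for the low-quality cells. The cause was not tested for any of these.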
